A study of Mus musculus with 157 samples.

Results

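The mRNAs described here encode 10 RNA-binding proteins: Tia1 and Tial1, Elavl1, Ptbp1 and Ptbp3, Zfp36, Zfp36l1 and Zfp36l2, and G3bp1 and G3bp2. They were taken by gene symbol from a table of 19600 genes and all 10 were listed in it. Of these, 9 passed the filter on low counts and were tested, and Zfp36l2 did not. Ribosome-associated mRNA of cultured mouse B cells was measured along sucrose gradients to ask how DNA damage, and the kinase ATM, change the mRNAs that B cells translate. The table gave counts of 3′ end tags in single gradient fractions, and 12 gradients of 13 fractions each were used.

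The B cells came from spleens of C57BL/6Babr mice and every group was stimulated with lipopolysaccharide (LPS) at 10 µg/ml, so no group was unstimulated. The LPS group had 48 h of LPS and no other agent. The LPS+ET group also received 20 µM etoposide, a topoisomerase II poison that breaks both DNA strands, for 4 h. The LPS+ET+KU group had LPS for 47 h and was given the ATM inhibitor KU55933 at 10 µM during 1 h before etoposide, so its comparison with LPS+ET bears on ATM. No group received KU55933 without etoposide. All cells had cycloheximide at 100 µg/ml for 3 min before lysis, which holds ribosomes on mRNA. Each group had 4 gradients, named here by treatment and by the library pool (LUL15 to LUL18) of the column name. The study's methods call the replicates biological but neither they nor the labels say that gradients came from separate animals, so p-values measure the spread between gradients, which may in part be technical.

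AU-rich and U-rich elements in 3′ untranslated regions are binding platforms for proteins that set how long an mRNA lasts and how well it is translated. Zfp36 proteins bind AU-rich elements and recruit deadenylases, whereas Elavl1 (HuR) binds similar sequences and usually stabilises the mRNA or favours its translation. Tia1 and Tial1 silence translation of U-rich mRNAs and join stress granules, whose assembly depends on G3bp1 and G3bp2, and Ptbp1 and Ptbp3 bind pyrimidine-rich tracts in splicing and translation. In B cells, Elavl1 and Ptbp1 are needed for germinal centre responses and Zfp36l1 and Zfp36l2 restrain the cell cycle during B cell development.

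Several of these binders carry AU-rich elements in their own mRNAs. The 7-base element TATTTAT was searched on the mRNA strand of the 300 bases before the main tag site of each gene, in transcripts of GENCODE release M21 on GRCm38, the assembly of the counts. It occurred 3 times in Zfp36, once each in Ptbp1 and Tial1, and in none of the other 6 genes tested, against 9.28% of 10583 genes with at least 1 copy. TATTTAT contains the shorter ATTTA, which 5 of the 9 members (Zfp36, Zfp36l1, Elavl1, Ptbp1 and Tial1) and 38.5% of these genes held. The stretches below show the element, in capitals, in the 3 members that have it, and a match is a description of sequence and not a measured binding site. The Zfp36 stretch holds 2 of its 3 copies.

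Zfp36, chr7:28376962-28376991, minus strand, 3′ untranslated exon: gggcccttTATTTATgacgacttTATTTAT
Ptbp1, chr10:79864167-79864196, plus strand, 3′ untranslated exon: agtgtaaaTATTTATgattttatacctgtg
Tial1, chr7:128442419-128442448, minus strand, 3′ untranslated exon: aatgaaaaTATTTATtttaaaaattgaaat

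Tags lie just before a poly(A) tail, and each gene's count is a sum over the poly(A) sites selected for it in the deposited counts. Levels therefore leave out sites that were not selected. Elavl1, Ptbp1 and Zfp36 were counted at 1 site each, of 13, 6 and 1 sites recorded for them. Tia1 was counted at 7 of 13 sites, of which the 3 largest held 33.4%, 23.6% and 22% of its tags over all libraries. The main Tia1 site lay at position 86432180 of chromosome 6, in a 3′ untranslated exon, and is shown because it supplies the largest part of a thin count, with the poly(A) signal in capitals.

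Tia1, chr6:86432151-86432180, plus strand: aagatgAATAAAttttttaaatacttggaa

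The second Tia1 site, with 23.6% of the tags, lay at position 86422142 in an exon annotated neither as coding nor as 3′ untranslated. Neither AATAAA nor ATTAAA stood in the 30 bases searched there. Whether these tags come from the coding Tia1 mRNA was not tested. The signal AATAAA stood in the 30 bases before the main site in 59.3% of 10642 genes. Zfp36l2 was counted at a single site that lay 72 bases past its annotated end. It had 3 counts in all, 1 in an LPS gradient and 2 in an LPS+ET+KU gradient, both of pool LUL16, so neither its level nor its profile could be described, and a count this low at 1 site does not show that the mRNA was absent.

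Library totals in fractions 4 to 16 ran from 14724 to 4170688 counts, and gradient totals from 6404957 in LPS+ET of pool LUL16 to 21449781 in LPS+ET+KU of pool LUL16. Of 156 libraries, 12 held under 100000 counts, and 4 of these were heavy fractions of the LPS+ET gradient of pool LUL16. B cell markers summed to between 6779 and 10972 CPM (counts scaled to a library of 1e6) in every gradient, with all 8 listed markers detected and Cd74 alone averaging 6334, 6726 and 6568 CPM in LPS, LPS+ET and LPS+ET+KU, against at most 38.2 for 7 T cell markers, 158 for 7 myeloid markers and 4.13 for 3 NK cell markers. Among known targets of the damage response, Cdkn1a, Mdm2, Bax and Ccng1 were called higher in LPS+ET than in LPS. In such bulk samples fewer cells of a type and less RNA per cell cannot be told apart.

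Levels in LPS cells spanned a more than 10-fold range among the members. A level is the gene's summed count over fractions 4 to 16 in CPM, after TMM scaling, and since a 3′ tag is read once per mRNA it was not divided by length. Fractions therefore weigh in a level by the depth of their libraries, which differed between gradients. In counts as deposited, the median heavy polysome share over all genes ran from 30.7% in LPS+ET of pool LUL16 to 74.3% in LPS+ET of pool LUL17. Zfp36 was the most abundant with 397 ± 62.1 CPM (SD, n = 4), followed by G3bp1 with 363 ± 26.3, Elavl1 with 307 ± 48.8, Ptbp3 with 273 ± 27.3 and Ptbp1 with 216 ± 15.5. Each of these neighbours overlapped with the next over the 4 gradients, so their order is not settled. Zfp36l1 came next with 123 ± 28.3 CPM and Tial1 with 68.9 ± 10.4. The least abundant were G3bp2 with 29 ± 1.82 and Tia1 with 27.3 ± 4.36, which overlapped. Within the families Tial1 mRNA therefore exceeded Tia1, G3bp1 exceeded G3bp2, and Zfp36 exceeded Zfp36l1 in this measure. Counts per gradient ranged from 116 to 396 for Tia1 and from 1655 to 9148 for Zfp36, so Tia1 is the most thinly measured of the 9.

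**Figure D1:**
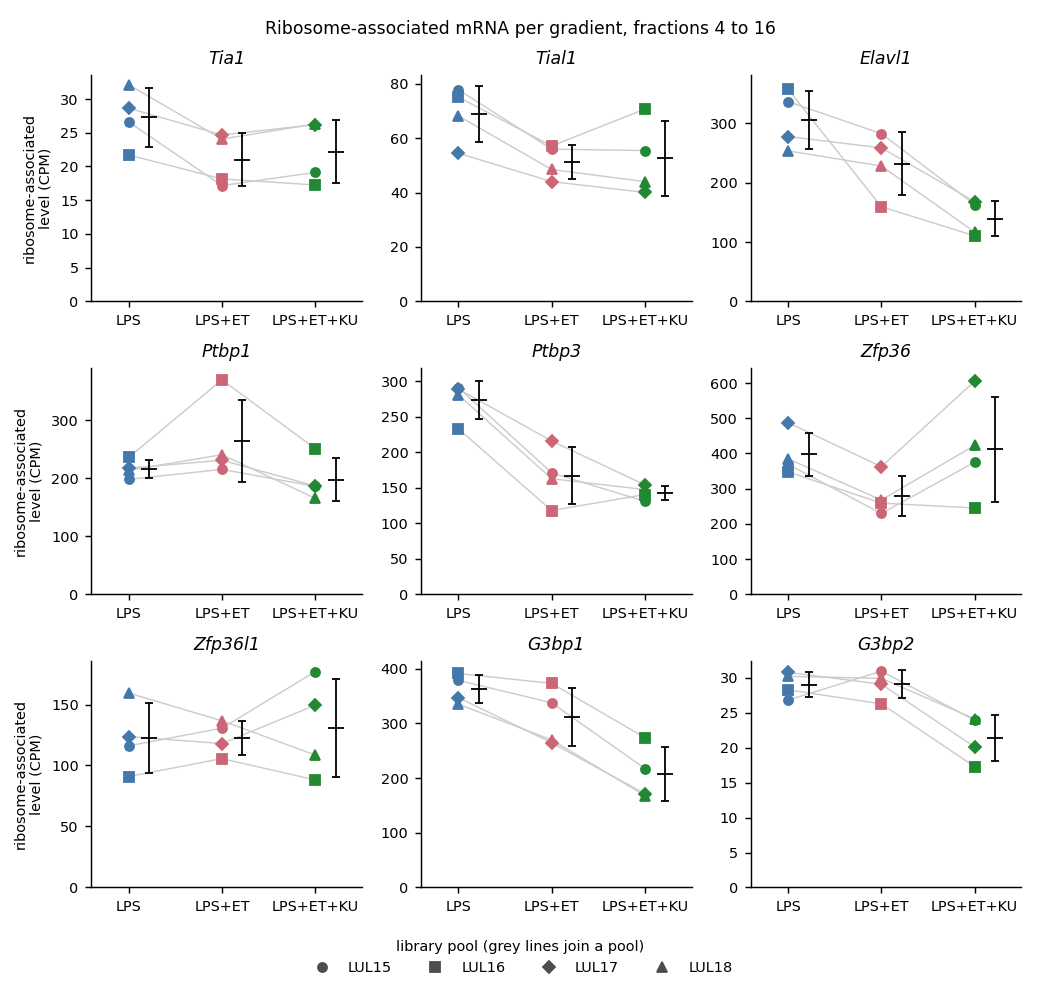
Ribosome-associated level (CPM, fractions 4 to 16) of the 9 measured mRNAs in each of 12 gradients; symbols mark the library pool, grey lines join gradients of a pool, and bars give mean and SD of 4 gradients. Elavl1 and Ptbp3 are lower in all LPS+ET+KU gradients (at most 168 and 154 CPM) than in any LPS gradient (at least 254 and 233), whereas Zfp36l1 overlaps in all 3 groups.

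The members occupied different parts of the gradient, and related mRNAs did not lie together. Fractions 4 to 7 held monosomes, 8 to 10 light polysomes and 11 to 16 heavy polysomes. Because equal RNA concentrations were used for each library, a gene's profile was computed from its CPM in each fraction as a share of the sum over 13 fractions. An even spread gives 7.69% per fraction, and these shares compare mRNAs with one another and are not shares of a gene's molecules in the cell. Zfp36 peaked among the monosomes in LPS cells, with 22.9% ± 4.85 in fraction 7 and 18.9% in fraction 6. G3bp1, G3bp2 and Ptbp1 peaked in fraction 14, at 20.6% ± 3.08, 22.5% ± 3.17 and 18.5% ± 6.64, and Elavl1 peaked in fraction 13 at 19.3% ± 2.78. Tia1 had no clear peak: its highest shares in LPS cells were 12.4% ± 3.37 in fraction 4 and 12.0% in fraction 12. The LPS libraries of fraction 4 held 42937, 419646, 17629 and 14724 counts in pools LUL15 to LUL18, so the Tia1 share there rests on few tags.

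**Figure D2:**
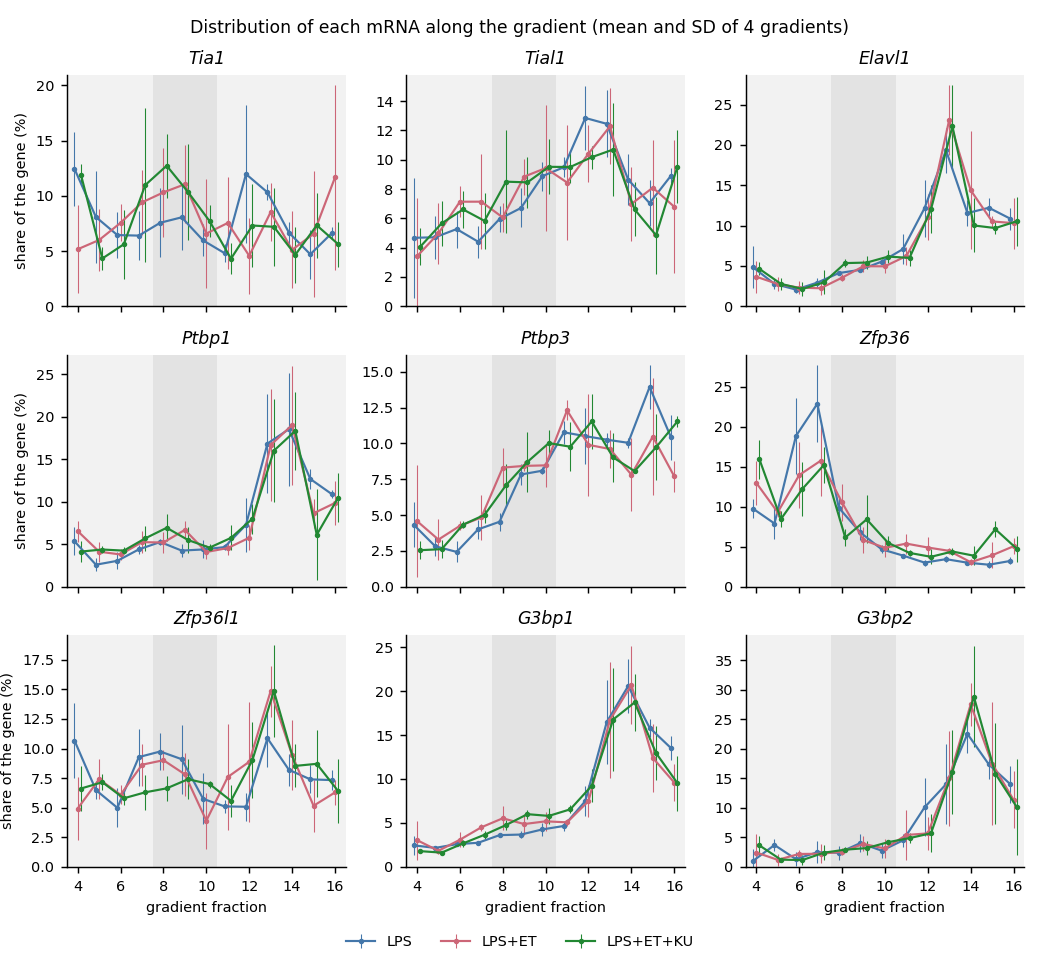
Share of each mRNA's summed CPM (%) in gradient fractions 4 to 16, as mean and SD of 4 gradients per treatment; the darker band marks light polysomes (fractions 8 to 10), with monosomes to its left and heavy polysomes to its right. Zfp36 lies mainly left of the band, with its LPS peak of 22.9% in fraction 7, while G3bp1, G3bp2, Ptbp1 and Elavl1 peak in fractions 13 and 14 in every treatment.

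The heavy polysome share, the part of the profile in fractions 11 to 16, ranked Zfp36 lowest and G3bp2 highest. In LPS cells it averaged 19.3% ± 1.06 for Zfp36, which placed it at percentile 4.09 of the 8000 genes that averaged at least 100 counts per gradient. It averaged 82.4% ± 3.56 for G3bp2 (percentile 98.3), 78.5% ± 1.55 for G3bp1 (95.5), 73.2% ± 2.51 for Elavl1 (88.8) and 70.8% ± 2.23 for Ptbp1 (84.7). Ptbp3 and Tial1 lay between, with 66.0% ± 1.79 and 59.4% ± 1.92. Tia1 and Zfp36l1 held less than most genes, with 45.1% ± 7.54 (percentile 30.1) and 44.0% ± 2.51 (percentile 28.2).

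The mean fraction, each fraction number weighted by the mRNA's share in it, was compared within 5 pairs of related members over the 12 gradients, with an exact two-sided sign-flip permutation test and adjustment over the 5 pairs. Zfp36 lay 1.93 ± 0.23 fractions lighter than Zfp36l1 (SD, n = 12; lighter in 12 of 12; exact p = 0.000488, the smallest the test can give, adjusted p = 0.00122). Tia1 lay 0.91 ± 0.67 fractions lighter than Tial1 (11 of 12; exact p = 0.00195, adjusted p = 0.00244) and 2.14 ± 0.60 lighter than Elavl1 (12 of 12; exact p = 0.000488, adjusted p = 0.00122). G3bp1 lay 0.53 ± 0.39 lighter than G3bp2 (11 of 12; exact p = 0.000977, adjusted p = 0.00163) and Ptbp1 lay 0.29 ± 0.35 heavier than Ptbp3 (10 of 12; exact p = 0.0171, adjusted p = 0.0171). All 5 differences thus passed 0.05, and all 5 also passed with counts as deposited and without the libraries under 100000 counts. Gradients of a pool vary together, so the 12 are not fully independent and these p-values are too small.

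**Figure D3:**
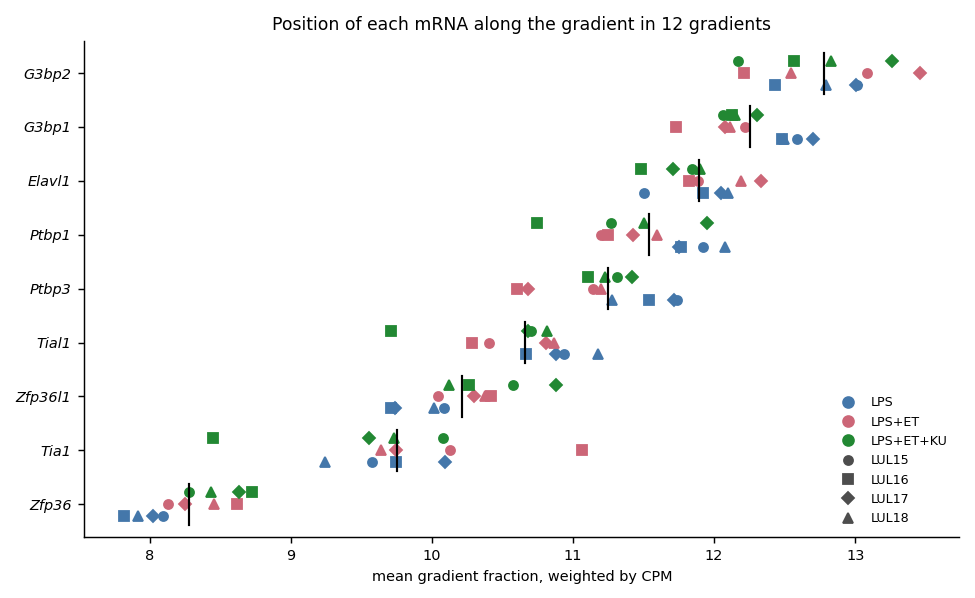
Mean gradient fraction (weighted by CPM) of each mRNA in 12 gradients, coloured by treatment and shaped by pool, with a bar at the mean of all 12. Zfp36 is lightest on average (8.28) and G3bp2 heaviest (12.8); Tia1 spreads most, from 8.45 to 11.1.

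Etoposide against LPS left no member past the threshold in ribosome-associated level, an adjusted p under 0.01 in edgeR's quasi-likelihood test over 12755 genes, although most lay lower. The share of all genes called was 12.7%, and 0 of the 9 members were called, with 1 (Ptbp3) at an unadjusted p under 0.05 and 1 (Ptbp3) called by DESeq2. DESeq2 called 18.5% of all genes here. Shares of all genes at an unadjusted p under 0.05 were not counted, here or below, so such member counts have no background. The members' median log2 fold change was -0.37, against 0.03 over all genes. Tia1, Tial1, Elavl1, Ptbp3, Zfp36 and G3bp1 were each lower in 4 of 4 pools and Ptbp1 was higher in 4 of 4. How many of all genes kept their direction in 4 of 4 pools was not counted, so this does not set the members apart.

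Ptbp3, which binds pyrimidine tracts, came nearest to a call. It stood at 291, 233, 289 and 281 CPM in the LPS gradients of pools LUL15 to LUL18 and at 171, 118, 216 and 163 CPM in those of LPS+ET. The groups did not overlap, as held for 27.5% of all genes, and the log2 fold change was -0.71 (SE 0.18, edgeR adjusted p = 0.0129). With the pool as a block, the change passed (-0.73, adjusted p = 0.000953), as in 26.7% of all genes. It also passed without the LPS+ET gradient of pool LUL17 (adjusted p = 0.00594).

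The silencers Tia1 and Tial1 had small differences that did not pass. Tia1 was at 26.6, 21.7, 28.6 and 32.1 CPM in LPS and at 17.2, 18.2, 24.7 and 24.1 CPM in LPS+ET. Tial1 was at 77.8, 75.1, 54.5 and 68.2 CPM in LPS and at 55.9, 57.1, 44.0 and 48.5 CPM in LPS+ET. The groups overlapped for both, with edgeR adjusted p = 0.212 and 0.147, although each pool's LPS+ET value was the lower. With the pool as a block, the edgeR adjusted p was 0.024 for Tia1 and 0.0181 for Tial1, which also did not pass.

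Among the AU-rich element binders that promote decay, Zfp36 was at 369, 348, 488 and 385 CPM in LPS and at 230, 259, 363 and 268 CPM in LPS+ET (log2 fold change -0.51, SE 0.25, edgeR adjusted p = 0.172). The LPS+ET gradient of pool LUL17 reached into the LPS range. Zfp36l1 averaged 123 CPM in both groups. Elavl1 was at 337, 358, 278 and 254 CPM in LPS and at 283, 160, 259 and 228 CPM in LPS+ET (log2 fold change -0.40, SE 0.22, edgeR adjusted p = 0.215), so its groups overlapped as well. The granule nucleators G3bp1 and G3bp2 had log2 fold changes of -0.22 and 0.00 (edgeR adjusted p = 0.463 and 0.991). Ptbp1 had one of 0.29 (edgeR adjusted p = 0.344), in which the LPS+ET gradient of pool LUL16 stood at 370 CPM against 215 to 241 in the other 3.

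With the ATM inhibitor added, Elavl1, Ptbp3 and G3bp1 lay below their LPS levels past the threshold. In LPS+ET+KU against LPS 3 of the 9 members were called lower and 0 higher, where 10.7% of all genes were called, 4.42% lower and 6.25% higher. Elavl1 fell from 307 ± 48.8 to 140 ± 30.3 CPM, a 2.20-fold lower level, Ptbp3 fell from 273 ± 27.3 to 143 ± 9.90 CPM, 1.91-fold lower, and G3bp1 fell from 363 ± 26.3 to 208 ± 49.5 CPM, 1.75-fold lower. DESeq2, which called 18.3% of all genes, also called these 3. So did edgeR with the pool as a block (adjusted p = 0.00016, 0.000182 and 0.000192), which called 28.1%. Other settings, given below, lost some of the calls. These fold changes carry the weighting of fractions by library depth. With fractions weighted equally in limma, the log2 fold change was -0.73 for Elavl1 and -0.54 for G3bp1, against -1.13 and -0.81 in edgeR. Ptbp3 kept its call in that setting. The part of library depth in the fold changes was not tested further. G3bp2, the other granule nucleator, was at 29 ± 1.82 and 21.4 ± 3.29 CPM without overlap, as in 26.4% of genes, and did not pass (log2 fold change -0.44, edgeR adjusted p = 0.0493).

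Elavl1, the stabilising AU-rich element binder, was at 163, 111, 168 and 117 CPM with the inhibitor (pools LUL15 to LUL18). All 4 were below the lowest LPS value of 254 CPM, and the log2 fold change was -1.13 (SE 0.22, edgeR adjusted p = 0.00284). The call was lost without the LPS gradient of pool LUL15 (adjusted p = 0.0106) or LUL16 (0.0102), without the LPS+ET+KU gradient of LUL18 (0.0117), and with fractions weighted equally in limma (-0.73, 0.0186). Ptbp3 was at 131, 140, 154 and 147 CPM in LPS+ET+KU, the tightest of its 3 groups (log2 fold change -0.93, SE 0.18, edgeR adjusted p = 0.0032). Its call was lost without the LPS gradients of LUL15 (adjusted p = 0.0122) or LUL18 (0.0107) or the LPS+ET+KU gradients of LUL15 (0.0119) or LUL18 (0.0102).

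G3bp1 was at 379, 391, 347 and 335 CPM in LPS and at 217, 274, 171 and 168 CPM in LPS+ET+KU (log2 fold change -0.81, SE 0.19, edgeR adjusted p = 0.00957). Its call stood close to the threshold: it was lost when any LPS gradient or the LPS+ET+KU gradients of LUL15, LUL17 or LUL18 were left out (7 of 8 gradients, adjusted p from 0.0192 to 0.0337), with equally weighted fractions (-0.54, 0.0997), without the filter on low counts (0.0179) and in a fit of the 8 gradients alone (0.0119).

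The other members did not differ past the threshold between LPS+ET+KU and LPS. Tia1 was at 19.1, 17.3, 26.2 and 26.3 CPM with the inhibitor and Tial1 at 55.4, 70.7, 40.04 and 44 CPM, both lower than LPS in 4 of 4 pools (log2 fold change -0.29 and -0.39, edgeR adjusted p = 0.310 and 0.173). With the pool as a block, their edgeR adjusted p was 0.055 and 0.0187, which also did not pass. Zfp36 was at 375, 245, 605 and 423 CPM, the widest spread of any member, and it differed by a log2 value of 0.05 (SE 0.25, edgeR adjusted p = 0.901).

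LPS+ET+KU against LPS+ET, groups that differ in the inhibitor, called 0.455% of genes and 0 of the 9 members, with 4 (Elavl1, Zfp36, G3bp1 and G3bp2) at an unadjusted p under 0.05 and 0 called by DESeq2. The labels state 47 h of LPS for LPS+ET+KU and 48 h for LPS+ET. The study's methods add etoposide after 48 h of LPS and the inhibitor 1 h earlier, so the 47 h may be the time before the inhibitor. Elavl1 was lower in 4 of 4 pools (log2 fold change -0.74, SE 0.22, edgeR adjusted p = 0.0958). G3bp1 had one of -0.58 (SE 0.19, edgeR adjusted p = 0.136), also lower in 4 of 4. Its fold change passed with the pool as a block (-0.59, adjusted p = 0.00729), which called 6.36% of all genes. G3bp2 had one of -0.45 (SE 0.15, edgeR adjusted p = 0.149) in groups that did not overlap, as in 8.57% of genes. Zfp36 had one of 0.56 (SE 0.25, edgeR adjusted p = 0.291), higher in 3 of 4 pools, with pool LUL16 the exception. Tia1 and Tial1 were nearly level, at 0.08 and 0.03 (SE 0.20 for both). This comparison shares its LPS+ET gradients, and the LPS+ET+KU ones, with those above.

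**Figure D4:**
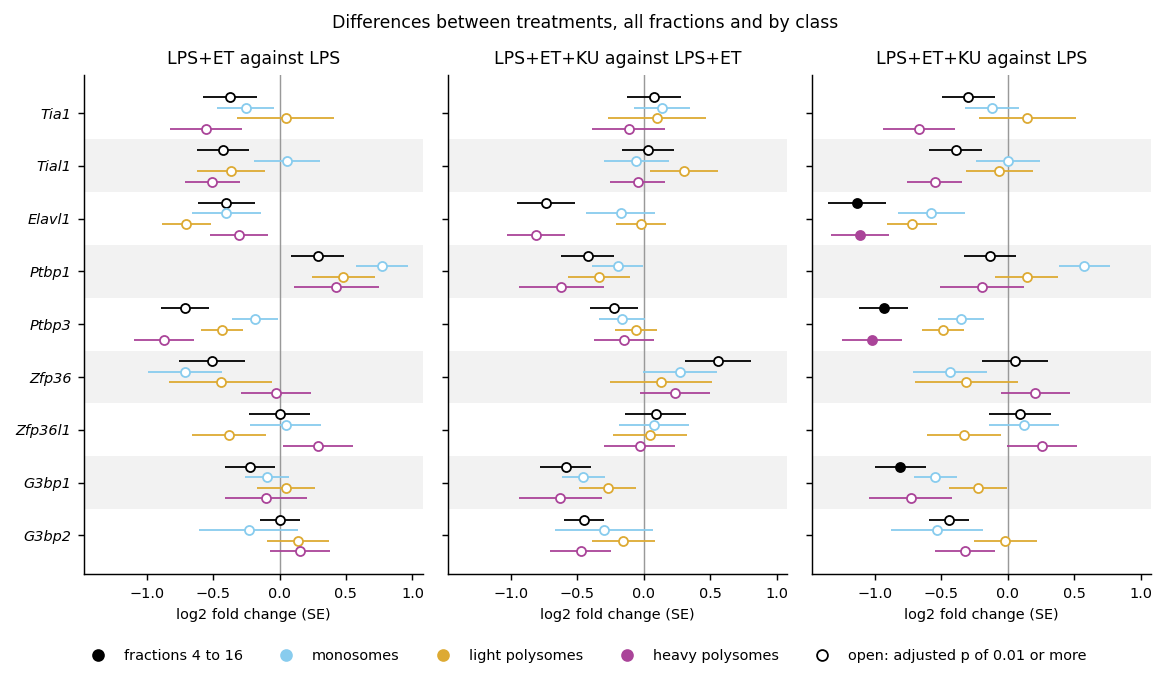
Log2 fold change with SE of each mRNA in 3 comparisons, over all fractions and within monosomes, light and heavy polysomes, from edgeR; filled points had an adjusted p under 0.01. The filled points are Elavl1, Ptbp3 and G3bp1 over all fractions and Elavl1 and Ptbp3 in heavy polysomes, all in LPS+ET+KU against LPS.

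Split by ribosome class, the lower levels of Elavl1 and Ptbp3 in LPS+ET+KU against LPS passed the edgeR threshold in heavy polysomes and in no other class. Both also lay lower in light polysomes (log2 fold change -0.72 and -0.49) and in monosomes (-0.57 and -0.35), without passing there. Counts were summed within each class and tested in the same way, so the fractions of a class also weigh by library depth. In heavy polysomes of LPS+ET+KU against LPS 2 of 9 members were called, both lower, where 7.95% of 11368 genes were called and 3.01% were called lower. Elavl1 fell there from 443 ± 82.5 to 205 ± 40.7 CPM (log2 fold change -1.11, SE 0.22, edgeR adjusted p = 0.00361) and Ptbp3 fell from 357 ± 39 to 176 ± 14.3 CPM (-1.02, SE 0.23, edgeR adjusted p = 0.00698). The Ptbp3 call was lost whichever of the 8 gradients was left out (adjusted p from 0.0120 to 0.0258), and the Elavl1 call without the LPS gradients of LUL15 (0.0151) or LUL16 (0.0149) or the LPS+ET+KU gradient of LUL18 (0.0141). G3bp1 joined them with the pool as a block (-0.80, adjusted p = 0.0044). DESeq2 and the block also called more of all genes in heavy polysomes, with counts given below.

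After etoposide alone 9.69% of genes and 0 members were called in heavy polysomes against LPS, with 2 members at an unadjusted p under 0.05 and 1 (Ptbp3) called by DESeq2. Ptbp3 heavy polysome levels were 383, 301, 384 and 360 CPM in LPS and 203, 127, 256 and 193 CPM in LPS+ET, without overlap (-0.87, SE 0.23, edgeR adjusted p = 0.0144; with the pool as a block -0.90, adjusted p = 0.0015). Tia1 heavy polysome levels were 25.8, 25.05, 32.8 and 30.1 CPM in LPS and 16.4, 17.5, 22.1 and 20.9 CPM in LPS+ET. Every LPS+ET gradient was below every LPS gradient, as in 24.7% of genes, but the change did not pass (-0.56, SE 0.27, edgeR adjusted p = 0.175). Tial1 was at 84.0 ± 11.4 and 59.2 ± 6.86 CPM, again without overlap and without a call (-0.50, SE 0.21, edgeR adjusted p = 0.107). Tia1 and Tial1 also did not overlap with LPS in LPS+ET+KU heavy polysomes, as in 25.1% of genes there (edgeR adjusted p = 0.0973 and 0.0781). With the pool as a block, the heavy polysome adjusted p of Tia1 and Tial1 was 0.0373 and 0.0288 in LPS+ET against LPS. It was 0.0120 and 0.0150 in LPS+ET+KU against LPS, so none passed.

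LPS+ET+KU against LPS+ET called 0.572% of genes in heavy polysomes and 0 members, with 1 (Elavl1) at an unadjusted p under 0.05, which DESeq2 also called. Heavy polysome Elavl1 was at 407, 359, 349 and 320 CPM in LPS+ET and at 251, 180, 226 and 163 CPM in LPS+ET+KU (-0.81, SE 0.22, edgeR adjusted p = 0.0755). These groups did not overlap, as in 8.67% of genes, and the change passed with the pool as a block (-0.82, adjusted p = 0.00985).

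In light polysomes the threshold was passed by 10.6% of 9922 genes in LPS+ET against LPS, 7.13% in LPS+ET+KU against LPS and 0.292% between the treated groups, and by 0 members in each, with 2, 2 and 0 at an unadjusted p under 0.05 and 1, 2 and 0 called by DESeq2. Light polysome Elavl1 was 170 ± 29.5 CPM in LPS, 105 ± 10.4 after etoposide and 103 ± 16.6 with the inhibitor added. Neither treated group overlapped with LPS, as held for 25.6% and 21.2% of genes (-0.70 and -0.72, SE 0.19 for both, edgeR adjusted p = 0.0169 and 0.0184), and both changes passed with the pool as a block (adjusted p = 0.00115 and 0.00107). The first passed too without the LPS gradient of pool LUL18 (adjusted p = 0.00961). Ptbp3 in LPS+ET+KU against LPS (-0.49, edgeR adjusted p = 0.0474) also passed with the block (-0.48, adjusted p = 0.00642). The block called 25% of all genes in LPS+ET against LPS and 24.1% in LPS+ET+KU against LPS, and DESeq2 15.2% and 12%.

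In monosomes the threshold was passed by 9.52% of 8932 genes in LPS+ET against LPS, 5.96% in LPS+ET+KU against LPS and 0.213% between the treated groups, and by 0 members in each, with 2, 3 and 1 at an unadjusted p under 0.05 and 1, 1 and 0 called by DESeq2. Ptbp1 monosome levels, higher in 4 of 4 pools, were 68.3, 90.6, 76.6 and 90.1 CPM in LPS and 128, 160, 146 and 122 CPM in LPS+ET. The groups did not overlap, as in 23.8% of genes, and the difference lay just outside the threshold (0.77, SE 0.19, edgeR adjusted p = 0.0119) and inside it with the pool as a block (0.77, adjusted p = 0.000127). Zfp36, most of whose profile is monosomal, was at 870, 843, 1212 and 968 CPM in LPS monosomes and at 581, 406, 853 and 542 CPM in LPS+ET monosomes, lower in 4 of 4 pools. Only the LUL17 value overlapped with LPS, and the change passed only with the pool as a block (-0.71, SE 0.28, edgeR adjusted p = 0.0912; with the block -0.76, adjusted p = 7.86e-05). In LPS+ET+KU against LPS monosomes the block added Elavl1 (-0.60, adjusted p = 0.0034), Ptbp1 (0.56, 0.00206), Zfp36 (-0.50, 0.00343) and G3bp1 (-0.55, 0.00116).

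Heavy polysome shares differed in direction between members, without a call. In limma over 8000 genes, the threshold was passed by 0.325% of genes after etoposide against LPS, 0.775% with the inhibitor added against LPS and 0% between the treated groups, and by 0 members in each, with 5, 5 and 0 at an unadjusted p under 0.05. The share of all genes at that unadjusted p was not counted, so these member counts do not show an excess. With 27 comparisons of members made, the exact permutation test over the 70 ways of splitting 8 gradients gave its smallest two-sided p of 0.0286 wherever groups did not overlap. These splits ignore the pairing by pool, although gradients of a pool vary together, so this p is not exact for paired gradients. No other tool was run on these shares.

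Zfp36 had the lowest limma adjusted p of the members, 0.0737 in LPS+ET+KU against LPS. Its heavy polysome share was 20.1%, 20.2%, 18.8% and 18% in LPS, 25.5%, 33.3%, 22.7% and 25.6% after etoposide and 27.1%, 31.6%, 27.6% and 26.3% with the inhibitor added. Both treated groups were above LPS without overlap (exact permutation p = 0.0286 for each), as 13.5% of genes were separated in LPS+ET against LPS and 16.3% in LPS+ET+KU against LPS. Zfp36l1 had the same pattern, with means of 44.0% ± 2.51, 52.2% ± 5.76 and 53.1% ± 3.64 (exact permutation p = 0.0286 for each against LPS; limma adjusted p = 0.212 and 0.158). For both genes the groups overlapped once libraries under 100000 counts were left out (exact permutation p = 0.857 and 0.8 in LPS+ET against LPS, 0.0571 and 0.171 in LPS+ET+KU against LPS). That setting keeps 2 of the 6 heavy fractions of the LPS+ET gradient of LUL16, so it lowers every gene's heavy share there by construction, and it drops heavy fractions of 3 other gradients. It also drops fraction 4 of the LPS gradients of LUL15, LUL17 and LUL18 and of the LPS+ET gradients of LUL17 and LUL18. It separates 13.7% and 18.2% of genes.

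Ptbp3, G3bp1, Tial1 and Ptbp1 had lower heavy polysome shares after etoposide. Ptbp3 held 68.0%, 65.4%, 66.7% and 63.8% in LPS and 60.6%, 51.4%, 57.8% and 61.6% in LPS+ET. G3bp1 averaged 78.5% ± 1.55 and 72.0% ± 3.88, Tial1 59.4% ± 1.92 and 53.0% ± 7.02, and Ptbp1 70.8% ± 2.23 and 64.4% ± 1.23. None of these groups overlapped (exact permutation p = 0.0286 for each), beside 13.5% of all genes, and the limma adjusted p was 0.139 for Ptbp3, 0.126 for G3bp1, 0.425 for Tial1 and 0.188 for Ptbp1. The Tial1 mean rests in part on LPS+ET of LUL16, at 42.6% against 55.1% to 57.4% in the other 3 gradients, and without that gradient its difference on the log2 odds scale went from -0.37 to -0.17. In LPS+ET+KU, Ptbp3, G3bp1 and Tial1 again lay below LPS without overlap (exact permutation p = 0.0286 for each), beside 16.3% of all genes. The median share over all genes was 50.5% in LPS+ET of LUL16 and 51.4% in LPS+ET+KU of LUL16, and between 54.3% and 56.8% in the other 10 gradients, so lower shares in pool LUL16 also held for genes at large.

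Tia1, the most thinly counted, had heavy polysome shares of 42.1%, 48.3%, 53.7% and 36.3% in LPS, 45.6%, 56.9%, 38.4% and 34.9% after etoposide and 48.1%, 22.6%, 35.1% and 39.8% with the inhibitor added. The groups overlapped (exact permutation p = 0.857 and 0.2 against LPS). Without the libraries under 100000 counts its means were 47.4% in LPS, 32.4% after etoposide and 34.8% with the inhibitor added, and neither treated group overlapped with LPS (exact permutation p = 0.0286 for each), but the LPS+ET gradient of LUL16 then stands at 11.8% with 2 of its 6 heavy fractions. The same setting drops fraction 4 of the LPS gradients of LUL15, LUL17 and LUL18, and a heavy fraction of that of LUL17. Their Tia1 shares went to 48.5%, 49.6% and 43.3%. It also drops a heavy fraction of LPS+ET+KU of LUL15, whose share went to 41.9%, so this separation depends on which fractions are kept. G3bp2 stayed among the heaviest genes in all treatments, with 82.4% ± 3.56, 82.4% ± 3.42 and 81.3% ± 2.34.

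The shape of the profile was tested as an interaction of treatment and fraction in edgeR on single-fraction libraries. It passed for 1.37% of genes in LPS+ET against LPS, 3.29% in LPS+ET+KU against LPS and 1.05% between the treated groups, and for 0 members in each, with 0, 2 and 0 at an unadjusted p under 0.05. Libraries of 1 gradient are not independent of one another, and no other tool was run on the profile. Zfp36 in LPS+ET+KU against LPS was the member nearest to the threshold (edgeR adjusted p = 0.0132). It passed with the pool as a block (adjusted p = 2.91e-05) and with a term for each gradient (adjusted p = 3.97e-07), settings that also called more of all genes. Its mean share in fraction 7 was 22.9% in LPS, 15.8% after etoposide and 15.2% with the inhibitor added, and in fraction 4 it was 9.75%, 13.0% and 15.9%.

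Other genes of the same processes were counted in lists, beginning with binders of AU-rich and U-rich elements. The lists were chosen with earlier results of these data known, so their shares describe the chosen genes and are not a test. Of 19 tested binders outside the members, 2 were called higher and 3 lower after etoposide against LPS (26.3%, against 12.7% of all genes), 0 between the treated groups, where 3 had an unadjusted p under 0.05 in edgeR, and 1 higher and 6 lower in LPS+ET+KU against LPS (36.8%, against 10.7%). Their median log2 fold changes were -0.01, -0.25 and -0.20. Hnrnpd (AUF1), a binder linked to decay of AU-rich mRNAs, fell from 448 ± 76.6 to 182 ± 28.7 CPM after etoposide (log2 fold change -1.30, SE 0.19, edgeR adjusted p = 0.000262) and was at 154 ± 21.7 CPM with the inhibitor (-1.54 against LPS, edgeR adjusted p = 0.000133). Syncrip (-1.14) and Celf2 (-1.24) also fell, and Rc3h2, a member of the Roquin family that promotes decay, rose from 15.7 ± 3.04 to 51.9 ± 19 CPM (1.73, edgeR adjusted p = 0.000757). Hnrnpab and Khsrp, the most abundant of the list that were not called, had log2 fold changes of -0.37 and -0.01 after etoposide.

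Further members of the same families were few: of 7 listed genes 5 were in the table and 3 were tested, with 0 called in each comparison and 1, 1 and 0 at an unadjusted p under 0.05 in edgeR after etoposide against LPS, with the inhibitor added against LPS and between the treated groups. Hnrnpl, a relative of Ptbp1, was at 278 ± 71.3 CPM in LPS, 166 ± 32.7 after etoposide and 141 ± 60.0 with the inhibitor added.

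Of 19 tested stress granule proteins, 0 were called higher and 1 lower after etoposide against LPS, and 0 higher and 2 lower with the inhibitor added (5.26% and 10.53%, against 12.7% and 10.7% of all genes). Between the treated groups edgeR called 0, with 3 at an unadjusted p under 0.05. Caprin1, the G3bp1 partner in granule assembly, fell from 134 ± 29 to 65.3 ± 14.7 CPM after etoposide (-1.04, SE 0.20, edgeR adjusted p = 0.0022) and was at 57.8 ± 5.00 CPM with the inhibitor (-1.22 against LPS, edgeR adjusted p = 0.0011).

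Of 28 tested genes of deadenylation and decapping, the machinery that Zfp36 proteins recruit, 1 was called higher and 2 lower after etoposide against LPS, and 2 higher and 2 lower with the inhibitor added (10.7% and 14.3%, against 12.7% and 10.7% of all genes). Between the treated groups edgeR called 0, with 4 at an unadjusted p under 0.05. Tob1, an adaptor of the CCR4-NOT deadenylase, rose from 0.906 ± 0.165 to 6.07 ± 2.19 CPM (2.74, SE 0.33, edgeR adjusted p = 7.28e-05), and the deadenylase genes Cnot6l (-1.37) and Pan3 (-0.92) fell. The scaffold Cnot1 did not pass after etoposide (-0.62, edgeR adjusted p = 0.0779).

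Of 19 tested genes that signal to Zfp36 proteins, 5.26% were called in each comparison. The share of all genes was 12.7% in LPS+ET against LPS, 0.455% between the treated groups and 10.7% in LPS+ET+KU against LPS. Mapkapk3, a p38-activated kinase, rose in LPS+ET against LPS (36 ± 9.50 to 181 ± 90.8 CPM, 2.33, SE 0.48, edgeR adjusted p = 0.00319) and was the single call there. Dusp4, a MAP kinase phosphatase, was the single call in the other comparisons: it was higher in LPS+ET+KU (130 ± 24.2 CPM) than in LPS+ET (45.6 ± 8.55 CPM; 1.52, edgeR adjusted p = 0.00143) and than in LPS (30.0 ± 1.35 CPM; 2.12, edgeR adjusted p = 1.03e-05).

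Textbook mRNAs with AU-rich elements were called in both directions. Of 23 tested, 6 were called higher and 2 lower after etoposide against LPS, 1 higher and 1 lower between the treated groups and 6 higher and 3 lower with the inhibitor added against LPS (34.8%, 8.70% and 39.1%, against 12.7%, 0.455% and 10.7% of all genes). The Cdk inhibitor Cdkn1a (4.64, edgeR adjusted p = 5.28e-07), the prostaglandin synthase Ptgs2 (3.86) and Fos (3.80) rose after etoposide, and the survival gene Bcl2 fell from 254 ± 22.5 to 65.9 ± 24.7 CPM (-1.95, SE 0.28, edgeR adjusted p = 0.000274). With the inhibitor, Egr1 fell (-1.99, edgeR adjusted p = 0.00087) and the chemokine Cxcl10 rose from 3.08 ± 0.776 to 55.1 ± 29.7 CPM (4.17, edgeR adjusted p = 0.00143) against LPS+ET. Nfkbia and Ccnd2, abundant members of the list, did not pass after etoposide (0.05 and -0.49).

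Across the 12 gradients the log2 level of Tia1 was most like those of Slc16a6, Crls1, 1700020I14Rik, Uri1 and Fam63b, with Pearson r of 0.958, 0.942, 0.939, 0.930 and 0.928 among 7999 other genes. Among the members it was most like Zfp36 (r = 0.720) and Ptbp3 (0.685), and least like Ptbp1 (-0.44), while for Tial1 r was -0.15. Zfp36 was most like 1110038B12Rik (0.940), Taf1d (0.932), Pim1 (0.929), Gm12034 (0.897) and Rplp1 (0.891). These values describe 12 gradients that share treatments and pools, and genes of a gradient share its depth.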

How the data were processed

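Splenic B cells were fractionated on sucrose gradients (given as 10-50% in the series text and 10-30% in the protocol) and 3′ end libraries were made from equal RNA concentrations per fraction. The authors removed PCR duplicates with random primer bases, aligned tags to GRCm38 (mm10; TopHat2 2.0.12 is among the tools in the submitters' processing notes) and deposited unnormalized counts per Ensembl gene. All 19600 rows held whole counts that summed to the deposited row total. Intervals and tests cover neither cell numbers nor RNA amount per fraction.

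Of 157 columns, 79 matched a single labelled sample and 78, of pools LUL16 and LUL18, only their treatment and fraction, so gradients are named by pool. The library of fraction 17 (777 counts) was left out. Deviations of log2 CPM from treatment means correlated at r of 0.353 to 0.894 between same-pool gradients (median 0.685; 12 of 12 over 0.1) and -0.67 to 0.402 between others (median -0.32; 8 of 36 over 0.1) across 8000 genes, so pools were taken to pair the gradients. This pairing comes from the column names, not from a statement on animals or days.

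Counts were summed per gradient and class and tested with edgeR 4.0.16 (TMM, default filter, quasi-likelihood, all 12 gradients, treatment as the term, Benjamini-Hochberg adjusted p under 0.01, two-sided). Heavy polysome shares (0.5 added, logit) were tested with limma 3.58.1 over genes averaging at least 100 counts per gradient, and profiles with edgeR on single-fraction libraries. R 4.3.3, DESeq2 1.42.0 and Python 3.11.15 were used. The scripts were tested on simulated data. Alternatives were DESeq2, the pool as a block, no filter, equal fraction weights, other thresholds, the 8 gradients compared and leaving out each gradient. The members and gene lists were chosen with earlier results of these data known. Named genes were all members and, per list and comparison, up to 4 called genes with the smallest adjusted p and up to 2 most abundant genes not called; Pearson r ranked the 5 genes most like Tia1 and Zfp36. Some genes that this rule names are not reported here.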

Additional observations from a re-analysis of the deposited data

Results flagged for a closer look

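Over 81 groups of 4 gradients (level, heavy polysome share and mean fraction of 9 members in 3 treatments), 5 held a gradient farther from the others than Dixon's 95% critical ratio allows. Chance flags about 1 in 20 independent groups, but these groups share gradients and all 5 values lie in pool LUL16. Ptbp1 stood at 370 CPM in LPS+ET of pool LUL16, against 215 to 241 CPM in the other 3 gradients. In the same gradient the heavy polysome share was 42.6% for Tial1 (55.1% to 57.4% in the others), 70.9% for Elavl1 (76.7% to 77.5%) and 60.8% for Zfp36l1 (48.8% to 50.0%). This gradient had the lowest total, 6404957 counts, and 4 of its heavy fraction libraries held under 100000 counts; the part of depth in these values was not tested. The mean fraction of Tial1 was 9.71 in LPS+ET+KU of pool LUL16, against 10.7 to 10.8 in the others. In the library of fraction 17 no member had more than 2 counts (Elavl1), which is under the limit of 3 that a count of 0 allows.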

How the results depend on the processing

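No difference of a member reversed direction and stayed called under any alternative run. The number of members called in ribosome-associated level was 0 in LPS+ET against LPS and 1 (Ptbp3) with DESeq2, the replicate block, equal fraction weights or an adjusted p under 0.05; it was 0 in LPS+ET+KU against LPS+ET and 1 (G3bp1) with the block; and it was 3 in LPS+ET+KU against LPS and 1 (Ptbp3) with equal weights. In monosomes 0 members were called, against 1 (DESeq2) and 2 (block) in LPS+ET against LPS and 1 (DESeq2) and 4 (block) in LPS+ET+KU against LPS. In light polysomes 0 became 1 with DESeq2 or the block in LPS+ET against LPS, and 2 with either in LPS+ET+KU against LPS. In heavy polysomes 0 became 1 with either, both for LPS+ET against LPS and between the treated groups. For the profile, 0 became 2 in LPS+ET against LPS and 4 in LPS+ET+KU against LPS when treatment and interaction were tested together, and 1 in the latter with a term for each gradient or the block. Leaving out 1 gradient gave 0 to 1 calls in level for LPS+ET against LPS, 0 to 3 for LPS+ET+KU against LPS, 0 to 1 in light polysomes for LPS+ET against LPS and 0 to 1 in heavy polysomes for LPS+ET+KU against LPS. In heavy polysomes of LPS+ET+KU against LPS the block added G3bp1 to Elavl1 and Ptbp3. The pairing of pools changed no other member's call. The cause of these changes was not tested. Calls over all genes moved alike: 1618, 58 and 1361 genes in level (LPS+ET against LPS, LPS+ET+KU against LPS+ET, LPS+ET+KU against LPS) became 3403, 811 and 3589 with the block, 2344, 413 and 2319 with DESeq2, 2875, 319 and 2903 at an adjusted p under 0.05, 1085, 21 and 875 with equal weights and 1652, 0 and 1059 in fits of the 8 gradients compared. Leaving out single gradients turned the 58 into 19 to 172, the highest when LPS+ET of LUL16 was dropped. In the same order of comparisons, DESeq2 and the block called 1195, 109 and 935 and 2195, 502 and 2068 genes in monosomes (850, 19 and 532 as reported), 1508, 214 and 1190 and 2482, 531 and 2389 in light polysomes (1055, 29 and 707), and 1734, 283 and 1667 and 2338, 372 and 2433 in heavy polysomes (1101, 65 and 904). Heavy share calls were 26, 0 and 62 genes, against 0, 0 and 0 with counts as deposited, 6, 0 and 0 from a mean of 20 counts, and 2, 0 and 0 without libraries under 100000 counts, an alternative added after seeing the data that keeps 2 of 6 heavy fractions of LPS+ET of LUL16. Profile calls were 142, 110 and 339 genes, against 593, 380 and 1132 with a term for each gradient, 508, 368 and 900 with the block and 3208, 839 and 3373 for treatment and interaction together. Depth limits Tia1 and G3bp2 most, at 116 and 168 counts in their shallowest gradients.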

Other observations

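Of 4 plasma cell markers in the table, Sdc1 and Irf4 were called in at least 1 comparison, and Xbp1 (107, 102 and 102 CPM in LPS, LPS+ET and LPS+ET+KU) and Prdm1 (54.8, 44.8 and 26.4 CPM) were called in none. Sdc1 was at 5.46 ± 1.69 CPM in LPS, 59.1 ± 17.5 after etoposide and 15.6 ± 5.80 with the inhibitor added, and it was called higher in LPS+ET than in LPS (log2 fold change 3.42, SE 0.32), lower in LPS+ET+KU than in LPS+ET (-1.93, SE 0.29, edgeR adjusted p = 0.0057) and higher in LPS+ET+KU than in LPS (1.5, SE 0.30). Irf4 fell from 201 ± 32.6 to 102 ± 16.4 CPM in LPS+ET+KU against LPS (-0.98, SE 0.19, edgeR adjusted p = 0.00317). The summed plasma cell markers ranged from 307 to 447 CPM in LPS, from 334 to 559 after etoposide and from 166 to 335 with the inhibitor added, with all 4 markers in the table detected. Of 8 B cell markers 7 had a lower mean in LPS+ET than in LPS (median log2 fold change -0.76), 5 of them at an unadjusted p under 0.05 in edgeR, and 1 (12.5%, against 12.7% of all genes), Cd22, was called. Cd22 fell from 434 ± 22.9 to 100.0 ± 63.1 CPM after etoposide (-2.12, SE 0.40, edgeR adjusted p = 0.00171) and to 123 ± 62.2 CPM with the inhibitor. Of 6 tested myeloid markers 1, Cd14, was called, higher in LPS+ET+KU (8.46 ± 5.51 CPM) than in LPS (0.582 ± 0.164 CPM). The part of any of these cell states in the members' levels was not tested.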
